A study of Homo sapiens with 9 samples.

Results

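Protocadherins are cell surface proteins of the cadherin superfamily that mediate homophilic contact, and they are best known from the nervous system, where combinations of clustered isoforms give neurons an individual surface identity. In the PCDHA and PCDHG clusters each variable exon has a promoter of its own and is spliced to constant exons that all genes of the cluster share, whereas PCDHB genes lack a constant region. Promoter choice in the clusters depends on the insulator protein CTCF and on cohesin, and the non-clustered protocadherins are separate genes on several chromosomes.

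The protein coding genes whose symbol begins with PCDH numbered 41, of 51111 genes in the table of nuclear poly(A) binding protein (PABPN) RNA immunoprecipitation (RIP) against input and of 51268 genes in the table of cytoplasmic poly(A) binding protein (PABPC) RIP against input. They were 11 PCDHA genes, 16 PCDHB genes, 1 PCDHG gene (PCDHGA1) and 13 non-clustered genes, and all 41 were listed in both tables. The data came from HEK293T, an established human embryonic kidney line, wildtype in genotype, and every group, input included, was crosslinked with 0.1% formaldehyde for 10 min. There were 3 libraries each of input RNA, PABPN RIP and PABPC RIP, 9 in all, from 3 biological replicates in each of which 1 lysate was shared between the antibodies. Ribosomal RNA was depleted rather than poly(A) RNA selected, so unpolyadenylated and unspliced RNA could be read too, and reads in introns were counted with those in exons.

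Libraries held an estimated 36.5e6 to 52.2e6 reads on listed genes. Of the markers examined, the neurofilament gene NEFM had a baseMean (the mean normalized read count over the 6 libraries of a table) of 56817, VIM one of 9896 and the kidney lineage gene PAX2 one of 265 in the PABPN table, while the leukocyte gene PTPRC was at 0.804 and the keratinocyte gene KRT5 at 0.162. The collagen gene COL1A1 was at 455 and the astrocyte gene GFAP at 28.7. All groups are bulk lysates of this single line, so fewer cells with a transcript and less RNA per cell cannot be told apart, and each RIP library was scaled to itself, so a fold change is relative to the other RNAs in the same pull-down.

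Stretches shared between genes had been removed before counting, and the classes differ in how much of each gene is not shared. In GENCODE 44, 14 of the 15 coding PCDHA genes and 21 of the 22 coding PCDHG genes have fewer than 10 bases that no other gene covers on the same strand, against 0 of the 16 PCDHB genes, although PCDHB16 keeps 22, PCDHB14 29 and PCDHB8 59 such bases. The non-clustered PCDH20 keeps 173. Of the clustered genes, 4 PCDHA genes (PCDHA11, PCDHA12, PCDHA13 and PCDHAC1) and 21 PCDHG genes were listed in neither table, while all 16 PCDHB genes were listed. Why those genes were not listed was not tested, and the authors also removed genes with upstream transcription. PCDHGA1, the first gene of its cluster, keeps 8246 bases of its own within a span of 182 kb, and PCDHA1, first in the PCDHA cluster, keeps 8716 bases. PCDHA2 to PCDHA10 and PCDHAC2 were listed although GENCODE 44 leaves them 0 bases of their own, and the annotation the counts rest on is an earlier release. Values of PCDHA genes, PCDHGA1, PCDHB8, PCDHB14, PCDHB16 and PCDH20 may therefore describe only the part of each gene that was left to count. The countable length is not known here, so baseMeans and reads are given as the depth behind each value and not as levels of expression per length.

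Most PCDHB promoters held a common stretch of letters. Promoters from RefSeq (GRCh38.p14, 250 bases before to 50 bases after each annotated start) were found for 14 PCDHB, 10 PCDHA, 1 PCDHG and 11 non-clustered members. The letters GGTGGCGCT, searched on both strands, were present in 13 of the 14 PCDHB promoters (92.9%), in 0 of the 10 PCDHA promoters, 0 of 1 PCDHG promoter and 0 of the 11 non-clustered promoters, and in 176 of all 35116 promoters (0.501%). These letters were chosen as a stretch common to PCDHB promoters, so the counts are a description. The shorter CGCT, which lies within GGTGGCGCT, was present in 70.0% of all promoters, in 14 of 14 PCDHB, 9 of 10 PCDHA, 1 of 1 PCDHG and 10 of 11 non-clustered promoters. Windows of 24 bases are given for the 5 PCDHB genes whose reads are described individually and for 1 gene of each other cluster, with capitals marking the 9 bases aligned with GGTGGCGCT (in PCDHA10 and PCDHGA1, the stretch most like the PCDHB windows). All lie on the plus strand of chromosome 5 (hg38), upstream of the annotated start.
PCDHB2: gagacgcggGGTGGCGCTgcagcc
PCDHB4: aagacgcagGGTGGCGCTgcaggc
PCDHB13: aggacgcgtGGTGGCGCTgcagga
PCDHB14: gagacacatGGTGGCGCTacagga
PCDHB15: acaacgcatGGTGGCGCTgcaggc
PCDHA10: aagccaccgGATGTCGCTgtcgtc
PCDHGA1: aggactgtgGGCGCCGCTgttcac

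The PCDHB2 window is chr5:141094546-141094569, that of PCDHB4 chr5:141121725-141121748, that of PCDHB13 chr5:141213867-141213890, that of PCDHB14 chr5:141223265-141223288 and that of PCDHB15 chr5:141245316-141245339. The PCDHA10 window is chr5:140855843-140855866 and that of PCDHGA1 chr5:141330405-141330428. The letters describe these windows only, and nothing about binding of a factor follows from them.

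With PABPN, no protocadherin was enriched and 2 were depleted, both non-clustered: PCDH18 and PCDH20. A gene was called where the DESeq2 log2 fold change passed 0.5 in size, its adjusted p was at most 0.01 and its baseMean was above 50, and 10 of the 41 members passed the last criterion. Among all 15526 genes past it, 17.5% were enriched with PABPN and 14.6% depleted, and nothing particular to the members was read from counts of 0 and 2 of 10. With PABPC, 11 of the 41 passed the baseMean criterion, 2 were enriched (PCDHGA1 and PCDH20) and 3 were depleted (PCDH7, PCDH9 and PCDH15), against 38.4% enriched and 32.4% depleted of all 14843 genes. Of the 10 genes past the criterion in both tables, 7 differed between the RIPs: PCDH7, PCDH9 and PCDH15 were higher with PABPN, and PCDHGA1, PCDH10, PCDH18 and PCDH20 higher with PABPC. Over all 14581 genes, 36.1% were higher with PABPN and 33.4% higher with PABPC. The 2 comparisons share their input libraries.

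**Figure D1:**
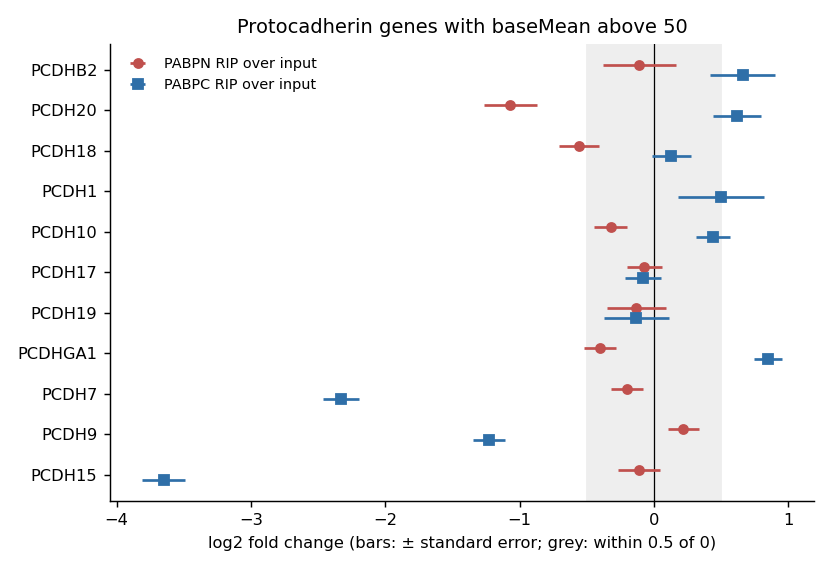
Log2 fold change over input (horizontal axis, bars are ± standard error) of the 11 protocadherin genes with baseMean above 50, with PABPN as circles and PABPC as squares, ordered by gene span with the longest at the bottom. PABPN values lie between -1.07 and 0.22, PABPC values between -3.65 and 0.85, and PCDH1 has a PABPC value only.

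The median log2 fold change of the 10 members was -0.16 with PABPN, against -0.04 for all genes tested and -0.09 for protein coding genes. With PABPC the median of the 11 members was 0.13, against 0.14 for all genes and 0.25 for protein coding genes. The members' medians thus lay near those of the whole tables, while their range with PABPC spanned from -3.65 to 0.85.

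Few reads lay on most clustered genes. Of the 28 clustered genes, 2 had a baseMean above 50 in either table, PCDHB2 and PCDHGA1. Of the 13 non-clustered genes, 8 did so with PABPN and 9 with PABPC. In the PABPN table baseMean ran from 0.486 to 44.6 over the PCDHA genes, from 0.676 to 66.2 over the PCDHB genes and from 8.56 to 12041 over the non-clustered genes, and it was 913 for PCDHGA1. With PABPC the ranges were 0.149 to 35.0, 0.577 to 75.6 and 5.5 to 6599, and PCDHGA1 was at 1244. At these depths a change in most PCDHA and many PCDHB genes was not detectable.

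Whole reads per library were solved from the baseMeans for 40 of the 41 members, all but PCDH7, and are given below as reads or as normalized reads (reads divided by the library's size factor). Libraries 1 to 3 of each group are numbered from the largest size factor down, since the tables carry no replicate numbers. The same input reads have other normalized values in the 2 tables, because size factors were set separately in each. For PCDH9, PCDH15, PCDH10 and PCDHGA1 the separate solutions of the 2 tables did not give the same input reads. Their reads come from 1 solution over both tables, and rest on a negative binomial fit of those reads, which returned the DESeq2 log2 fold changes within 2e-07.

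PCDHGA1, the single member of the PCDHG cluster that was listed, moved in opposite directions. Its normalized reads in the PABPN table were 1070, 1042 and 1004 in input and 787, 720 and 855 in PABPN RIP. Beside PABPC they were 905, 895 and 864 in input and 1530, 1694 and 1574 in PABPC RIP. Every PABPN RIP library thus lay below, and every PABPC RIP library above, all 3 input libraries. The DESeq2 log2 fold change was -0.40 ± 0.117 (standard error, adjusted p = 0.00225) with PABPN, inside the 0.5 limit, and 0.85 ± 0.107 (adjusted p = 8.22e-15) with PABPC. The difference, PABPN minus PABPC, was -1.25 ± 0.158 (95% interval -1.56 to -0.94, adjusted p = 1.04e-14 by a Wald test on the DESeq2 estimates).

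PCDHB2 was the PCDHB gene past the baseMean criterion. Its reads were 71, 64 and 61 in input, 94, 57 and 54 in PABPN RIP and 121, 78 and 63 in PABPC RIP. After normalization the PABPN RIP libraries (83.1, 55.2 and 52.5) lay on both sides of the input libraries (68.8, 69.5 and 68.2). The PABPC RIP libraries (108, 88.6 and 80.4) all lay above the input libraries of that table (58.2, 59.7 and 58.6). DESeq2 gave PCDHB2 a log2 fold change of -0.11 ± 0.272 (adjusted p = 0.794) with PABPN and 0.66 ± 0.245 (adjusted p = 0.013) with PABPC, and neither met the call criteria. The difference of -0.77 ± 0.366 (95% interval -1.48 to -0.05, adjusted p = 0.0466 by the Wald test) missed the 0.01 threshold.

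The other 15 PCDHB genes lay under the baseMean criterion, and their reads are given as a description. Summed over all 16 PCDHB genes, normalized reads in the PABPN table were 203, 164 and 196 in input and 272, 239 and 278 in PABPN RIP, a ratio of means of 1.41 (187 ± 20.6 against 263 ± 20.9, SD, n = 3 each). For PABPC the sums were 171, 141 and 168 in input and 289, 260 and 222 in PABPC RIP, a ratio of 1.61 (160 ± 16.8 against 257 ± 33.5, SD, n = 3 each). The RIP sums lay above all input sums in both tables. Without PCDHB2 the ratios were 1.68 with PABPN and 1.63 with PABPC. PCDHA genes, summed the same way, gave ratios of 0.883 with PABPN and 0.689 with PABPC, and their RIP and input sums overlapped in both tables. On a log2 scale the ratios of all 16 PCDHB genes were 0.49 with PABPN and 0.68 with PABPC. Protein coding genes past the baseMean criterion and in the PCDHB range of deposited length had median log2 fold changes of -0.05 and 0.38. All 16 PCDHB genes span less than 20 kb, and protein coding genes of up to 20 kb had medians of 0.06 and 1.26. The PCDHB ratio with PABPC thus lay below the median of genes of like span. For single-exon protein coding genes past the criterion the medians were -0.32 and 1.29, so a gain with PABPC is common among such genes.

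Gene by gene, the 3 RIP values lay above the 3 input values in 6 of the 16 PCDHB genes with PABPN and in 7 with PABPC, and below them in 1 and 0. Of the 11 PCDHB genes with baseMean between 2 and 100 in both tables, the RIP was above input without overlap in 5 with PABPN and in 6 with PABPC, and below it in 0 with either. Some of these gaps were narrow. For PCDHB11 with PABPN the lowest RIP value was 6.19 normalized reads and the highest input value 5.81. For PCDHB12 with PABPC they were 10.2 and 9.84. Among all 3299 protein coding genes in that range whose reads were solved, 19.1% lay above and 9.7% below with PABPN, and 21.6% above and 34.8% below with PABPC. PCDHB genes share sequence with each other, and 64.0% (PCDHB8) to 100% (PCDHB1) of their 75-base stretches, the read length, occur once in the cluster region (median 90.35%), so single genes are uncertain where reads could be placed on a copy.

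PCDHB15, PCDHB14, PCDHB13 and PCDHB4 were singled out after their values were seen. PCDHB15 had 25, 16 and 24 reads in input, 46, 42 and 71 in PABPN RIP and 47, 26 and 24 in PABPC RIP. Its DESeq2 log2 fold change with PABPN was 1.13 ± 0.375 (adjusted p = 0.00796), which only the baseMean of 36.5 kept from a call. With PABPC it was 0.81 ± 0.397 (adjusted p = 0.063 from DESeq2), which missed the 0.01 threshold. PCDHB14, which keeps 29 bases of its own in GENCODE 44, had 16, 15 and 14 reads in input, 43, 30 and 35 in PABPN RIP and 35, 29 and 19 in PABPC RIP. DESeq2 gave PCDHB14 1.09 ± 0.399 (adjusted p = 0.0174) with PABPN and 1.13 ± 0.427 (adjusted p = 0.0146) with PABPC, and both missed the threshold.

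Both genes were above input in every RIP library after normalization. PCDHB13 was likewise above input, with 25, 18 and 25 reads in input, 43, 36 and 34 in PABPN RIP and 30, 31 and 19 in PABPC RIP. With PABPC the gap was narrow, at 24.3 normalized reads in the lowest RIP library and 24.0 in the highest input library. The DESeq2 log2 fold changes of PCDHB13, 0.57 ± 0.361 (adjusted p = 0.211) with PABPN and 0.49 ± 0.403 (adjusted p = 0.285) with PABPC, missed the threshold. PCDHB4 had 0 reads in each of the 3 input libraries, 15, 5 and 8 in PABPN RIP and 3, 2 and 5 in PABPC RIP. Against 3 reads over the whole input group, the limit that a count of 0 allows, PCDHB4 was at least 8.33-fold higher with PABPN and at least 3.99-fold higher with PABPC. This limit covers the counting error of the input, and the 28 PABPN RIP reads and 10 PABPC RIP reads enter as measured. PCDHB4 had no adjusted p in the PABPN table. With PABPC its DESeq2 log2 fold change was 4.49 ± 1.78 (adjusted p = 0.0203), which missed the 0.01 threshold.

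**Figure D2:**
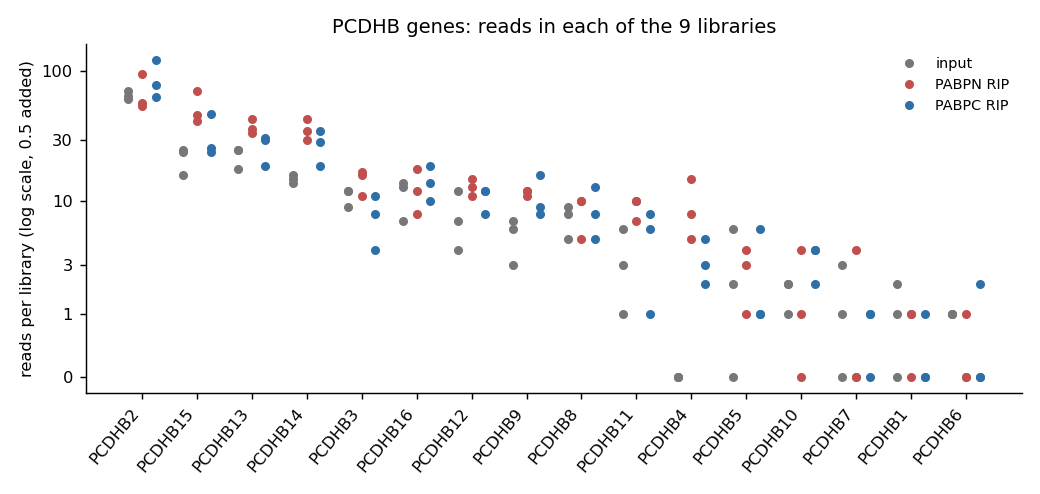
Reads per library (vertical axis, log scale with 0.5 added so that 0 can be drawn) of the 16 PCDHB genes in the 3 input, 3 PABPN RIP and 3 PABPC RIP libraries, 1 point per library and genes ordered by baseMean. PCDHB2 reaches 121 reads, while PCDHB4 has 0 reads in all 3 input libraries and 5 to 15 in the PABPN RIP libraries.

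Reads on PCDHA genes were few. PCDHA10, also singled out after its values were seen, held most of them, with 50, 46 and 33 reads in input, 38, 43 and 59 in PABPN RIP and 56, 18 and 19 in PABPC RIP, and its groups overlapped in both tables. Each of the other 10 PCDHA genes had a summed input of 11 reads or fewer over the 3 libraries. PCDHAC2 had 0 input reads and 3 reads in 1 PABPN RIP library, so no ratio was taken.

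Among the non-clustered genes, PCDH1, PCDH7, PCDH9 and PCDH11X belong to the delta-1 subgroup, named for the arrangement of their cytoplasmic motifs. PCDH7 had a baseMean of 12041 beside PABPN and 6599 beside PABPC. Its DESeq2 log2 fold change was -0.20 ± 0.116 (adjusted p = 0.169) with PABPN and -2.33 ± 0.133 (adjusted p = 1.59e-67) with PABPC. The difference between the RIPs was 2.13 ± 0.176 (95% interval 1.78 to 2.48, adjusted p = 1.38e-32 by the Wald test). Reads per library are not given for PCDH7, since at its depth the solution did not return the DESeq2 estimate.

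PCDH9 had 3075, 2876 and 2942 normalized reads in input and 3116, 3320 and 3905 in PABPN RIP. In the PABPC table it had 2603, 2470 and 2529 in input and 961, 1097 and 1197 in PABPC RIP. Every PABPN RIP library lay slightly above, and every PABPC RIP library far below, the input libraries. From DESeq2 the log2 fold change was 0.22 ± 0.117 (adjusted p = 0.129) with PABPN, which missed the threshold, and -1.23 ± 0.119 (adjusted p = 3.39e-24) with PABPC. The difference was 1.44 ± 0.167 (95% interval 1.12 to 1.77, adjusted p = 2.23e-17 by the Wald test).

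PCDH1, known from airway epithelium, passed the baseMean criterion with PABPC only (61.2, against 49.7 in the PABPN table). Its normalized reads in the PABPC table were 68.1, 48.5 and 35.5 in input and 84.7, 79.5 and 51.1 in PABPC RIP, and the groups overlapped. Its DESeq2 log2 fold change was 0.50 ± 0.323 (adjusted p = 0.166). PCDH11X, below the criterion and named after its values were seen, had 23, 20 and 25 reads in input, 26, 24 and 24 in PABPN RIP and 14, 2 and 5 in PABPC RIP. PCDH11X has a near-identical copy on chromosome Y, the member PCDH11Y, also below the criterion. PCDH11Y had 13, 5 and 18 reads in input, 17, 23 and 20 in PABPN RIP and 2, 10 and 4 in PABPC RIP. Of the 75-base stretches of their annotated exons, 54.6% for PCDH11X and 51.3% for PCDH11Y were not found in the other gene. Exons that overlap between transcripts were each counted here, so these are not shares of the merged exonic sequence. Reads could have been split or misplaced between them, so the values of neither can be assigned to that gene alone.

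PCDH8, PCDH10, PCDH17, PCDH18 and PCDH19 form the delta-2 subgroup, of which PCDH10 and PCDH17 are known to recruit the WAVE complex, a regulator of actin assembly, and PCDH19 is known as an epilepsy gene. PCDH10 had 1327, 1590 and 1614 normalized reads in input and 1265, 1244 and 1131 in PABPN RIP. In the PABPC table it had 1123, 1366 and 1388 in input and 1656, 1822 and 1790 in PABPC RIP. The RIP libraries lay below input with PABPN and above it with PABPC. Neither comparison met the call criteria, with DESeq2 log2 fold changes of -0.32 ± 0.123 (adjusted p = 0.0268) and 0.44 ± 0.125 (adjusted p = 0.00085), but their difference of -0.76 ± 0.175 did (95% interval -1.10 to -0.41, adjusted p = 2.71e-05 by the Wald test).

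PCDH18 was depleted with PABPN. It had 368, 368 and 362 normalized reads in input and 282, 232 and 231 in PABPN RIP, with a DESeq2 log2 fold change of -0.56 ± 0.149 (adjusted p = 0.000724). With PABPC the libraries overlapped, at 312, 316 and 311 in input and 335, 310 and 384 in RIP, and the log2 fold change was 0.13 ± 0.146 (adjusted p = 0.443 from DESeq2). The difference was -0.69 ± 0.209 (95% interval -1.10 to -0.28, adjusted p = 0.00146 by the Wald test). The PABPN value lay close to the 0.5 limit, and relative to the median of protein coding genes it was -0.47 and no longer called.

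PCDH17 and PCDH19 were called in neither RIP. PCDH17 had 550, 603 and 660 normalized reads in input against 552, 578 and 594 in PABPN RIP, and 466, 517 and 568 in input against 482, 476 and 507 in PABPC RIP. Its RIP libraries lay among its input libraries in both tables. The DESeq2 log2 fold changes were -0.07 ± 0.127 (adjusted p = 0.696) and -0.08 ± 0.134 (adjusted p = 0.605), and the 95% interval of their difference ran from -0.35 to 0.37.

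PCDH19 had 96.9, 128 and 113 normalized reads in input against 103, 115 and 89.4 in PABPN RIP, and 82.0, 110 and 97.0 in input against 73.1, 92.0 and 101 in PABPC RIP. The groups overlapped in both tables. For PCDH19 the DESeq2 log2 fold change was -0.13 ± 0.217 (adjusted p = 0.683) with PABPN and -0.13 ± 0.239 (adjusted p = 0.661) with PABPC. The 95% interval of the difference, -0.64 to 0.63, was wider than for PCDH17. PCDH8 lay under the baseMean criterion in both tables, as did PCDH12, known from endothelium.

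PCDH15, a component of the tip links of hair cells, gave the lowest PABPC value of the members past the criterion. It had 2183, 1737 and 1942 normalized reads in input and 1527, 1693 and 2194 in PABPN RIP, and these overlapped. In the PABPC table it had 1847, 1492 and 1669 in input but 153, 112 and 130 in PABPC RIP, far below every input library. DESeq2 gave a log2 fold change of -0.11 ± 0.156 (adjusted p = 0.606) with PABPN and -3.65 ± 0.160 (adjusted p = 2.59e-114) with PABPC. The difference was 3.54 ± 0.223 (95% interval 3.10 to 3.98, adjusted p = 3.26e-55 by the Wald test).

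PCDH20 was the one member called in both RIPs, in opposite directions. It had 248, 330 and 306 normalized reads in input and 171, 135 and 115 in PABPN RIP, with a DESeq2 log2 fold change of -1.07 ± 0.198 (adjusted p = 5.36e-07). In the PABPC table it had 210, 283 and 263 in input and 333, 386 and 448 in PABPC RIP, with a log2 fold change of 0.62 ± 0.179 (adjusted p = 0.00102 from DESeq2). No RIP library overlapped the input libraries in either table. The difference was -1.69 ± 0.267 (95% interval -2.22 to -1.17, adjusted p = 5.79e-10 by the Wald test). The PABPC call was lost when input library 1 or PABPC RIP library 3 was left out (log2 fold change 0.51 in each case), and relative to the median of all genes or of protein coding genes (0.48 and 0.37). In GENCODE 44 other genes on the same strand cover all but 173 bases of PCDH20.

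**Figure D3:**
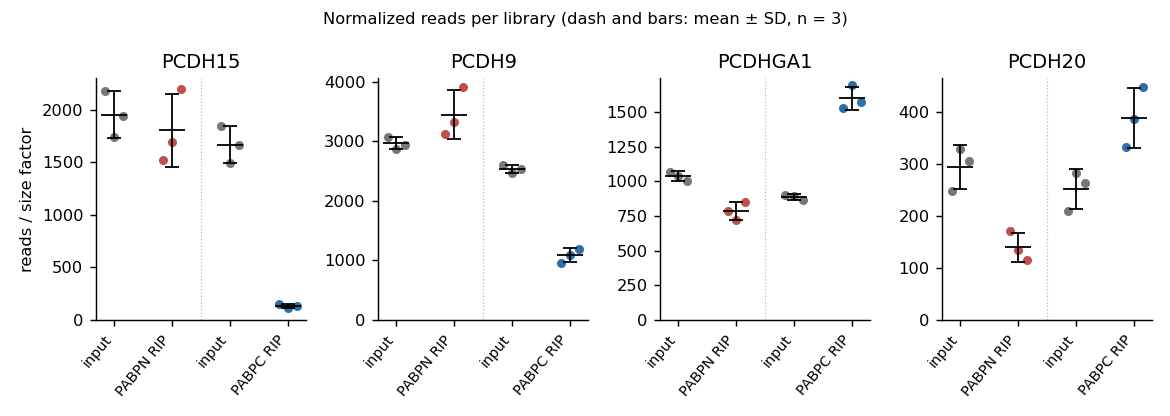
Normalized reads per library (vertical axes from 0, reads divided by size factor) of PCDH15, PCDH9, PCDHGA1 and PCDH20 in input and RIP of each table, with 3 points a group and a dash and bars for the mean ± SD. PCDH15 falls from 1492 to 1847 in input to 112 to 153 in PABPC RIP, while PCDH20 lies below input with PABPN and above it with PABPC.

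The 3 members depleted with PABPC were the longest of those past the criterion. PCDH15 spans 1825 kb (chr10:53802771-55627942), PCDH9 spans 928 kb (chr13:66302834-67230445) and PCDH7 spans 426 kb (chr4:30720369-31146805), in hg38 with GENCODE 44. The shortest were PCDHB2 (4.1 kb), PCDH20 (6.17 kb) and PCDH18 (13.6 kb), followed by PCDH1 (26.2 kb), PCDH10 (59.3 kb), PCDH17 (97.6 kb) and PCDH19 (119 kb). Over the 11 members Spearman's rho between span and the PABPC log2 fold change was -0.709, although span is not the stretch that was counted for PCDHGA1 and may not be for PCDH20. Without PCDHGA1, but with PCDH20 kept, it was -0.952 over 10 members. Over all 12580 protein coding genes tested it was -0.77. With PABPN it was 0.382 over 10 members, 0.433 over the 9 without PCDHGA1, and -0.147 over 12797 protein coding genes. These are descriptions across genes that share libraries and are not independent.

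**Figure D4:**
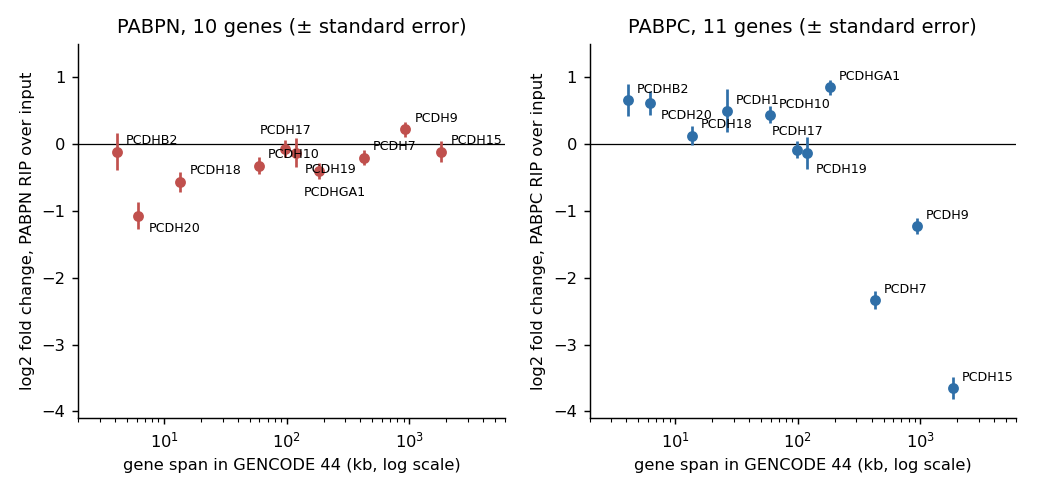
DESeq2 log2 fold change with its standard error (vertical axes) against gene span in kb (horizontal axes, log scale) for PABPN RIP (left, 10 genes) and PABPC RIP (right, 11 genes). The 3 genes longer than 400 kb have PABPC values of -1.23 to -3.65, and PCDHGA1, which spans 182 kb, is at 0.85.

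Protein coding genes of like span give the background for these values. With PABPC, 386 genes longer than 400 kb had a median log2 fold change of -2.81 (quartiles -3.44 and -2.17), and 96.6% were depleted. PCDH7 lay between those quartiles, PCDH15 below the lower one and PCDH9 above the upper one. Among 4052 genes of up to 20 kb the median was 1.26 (quartiles 0.71 and 1.73) and 80.2% were enriched. PCDHB2, PCDH20 and PCDH18 all lay below that lower quartile. PCDH1, PCDH10 and PCDH17 lay within the quartiles of the 5673 genes of 20 to 100 kb (-0.40 and 0.68), and PCDH19 lay above the upper quartile (-0.52) of the 2469 genes of 100 to 400 kb.

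With PABPN, PCDH20 and PCDH18 lay below the lower quartile (-0.48) of the 4030 genes of up to 20 kb, whose median was 0.06, and PCDHB2 lay within the quartiles. PCDH9 and PCDH15 lay above the upper quartile (-0.17) of the 404 genes longer than 400 kb, and PCDH7 within it. The exons of each of the 16 PCDHB genes together cover its whole span, and 5 of these genes have a single exon in every annotated transcript.

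Other genes of the pathway were taken from 3 lists. Of 48 genes of the cadherin superfamily outside the protocadherins, 29 were tested with PABPN, of which 2 were enriched and 6 depleted (median log2 fold change -0.21), and 28 with PABPC, of which 1 was enriched and 14 depleted (median -0.82). Beside these stand the shares over all genes, 17.5% enriched and 14.6% depleted with PABPN and 38.4% enriched and 32.4% depleted with PABPC, and all-gene medians of -0.04 and 0.14. FAT1, a giant cadherin, was depleted in both (DESeq2 log2 fold change -0.73 ± 0.116, adjusted p = 3.73e-09, with PABPN and -1.17 ± 0.109, adjusted p = 5.55e-26, with PABPC), and so was N-cadherin, CDH2 (-0.57 ± 0.112 and -1.64 ± 0.111). CELSR1, a planar polarity cadherin, had 0.40 ± 0.141 with PABPN and -0.49 ± 0.108 with PABPC and was called in neither.

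Of 16 CTCF and cohesin factors, all tested, 0 were enriched and 4 depleted with PABPN (median -0.31), and 2 were enriched and 8 depleted with PABPC (median -0.45), beside the same all-gene shares of 17.5% and 14.6%, and of 38.4% and 32.4%. The cohesin subunit SMC1A had -0.57 ± 0.110 with PABPN and 0.28 ± 0.106 with PABPC, STAG1 had -0.09 ± 0.108 and -1.96 ± 0.136, and the cohesin regulator PDS5A had -0.37 ± 0.100 and -0.52 ± 0.125. Of 9 genes of the WAVE complex, 0 were enriched and 3 depleted with PABPN (median -0.44), and 2 were enriched and 2 depleted with PABPC (median -0.22), again beside those shares. Among them the subunit NCKAP1 had -0.67 ± 0.0907 with PABPN and -0.22 ± 0.0962 with PABPC, CYFIP1 had -0.55 ± 0.127 and -0.25 ± 0.108, and ABI2 had 0.21 ± 0.0915 and 0.30 ± 0.0998.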

How the data were processed

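The authors aligned the reads to hg38 with STAR and counted them with featureCounts 2.0.2 over exons and introns, in an annotation derived from GENCODE 34 without readthrough transcripts and without stretches shared by genes. The paper also reports leaving out genes with many reads just upstream, which it attributes to transcription running on from a neighbouring gene. Whether this step removed protocadherin genes was not examined. Whether counting used strand is not given in the sources used here, so a gene and its antisense partner cannot be told apart. The authors made the deposited tables with DESeq2, and these hold baseMean (a normalized count signal), log2 fold change with its standard error, and p-value and adjusted p-value per gene, each from 3 RIP and 3 input libraries. The authors' criteria (log2 0.5, adjusted p 0.01, baseMean 50) were used.

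The difference between RIPs was the difference of both log2 fold changes, with their errors added in quadrature, a two-sided Wald test and Benjamini-Hochberg adjustment over all 14581 genes. The shared input makes this error approximate. Whole reads were solved from baseMean by lattice reduction (sympy 1.14.0): genes with 1 read in 1 library give each library's step, and the step and the sign of the fold change tell RIP from input. Of 2000 genes drawn with baseMean 2 to 300, 1996 were solved from both tables separately and 1960 of these (98.2%) gave the same 3 input reads. Deeper genes were not covered by this check. Of the members, 36 gave the same input reads, all but PCDH7, PCDH9, PCDH10, PCDH15 and PCDHGA1, and for 31 members, the last 4 included, a negative binomial fit of the reads returned the deposited log2 fold change within 0.0001. Intervals for reads cover counting error only.

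Spans and exons came from GENCODE 44. Deposited gene lengths equal or approximate the full exonic length and were not used to scale values. All members with baseMean above 50 were named, with the first 3 genes of each list by baseMean. The members, lists and rules were chosen with earlier results of these data known. Replicates are biological but share lysates between antibodies. Scripts were tested on simulated data with Python 3.11.15, pandas 2.3.3 and scipy 1.17.1.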

Additional observations from a re-analysis of the deposited data

Results flagged for a closer look

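The DESeq2 log2 fold change differed between the RIPs in 7 protocadherin genes, by the Wald test of the difference (PABPN minus PABPC). It was higher with PABPN for PCDH15 (3.54), PCDH7 (2.13) and PCDH9 (1.44), and higher with PABPC for PCDH20 (-1.69), PCDHGA1 (-1.25), PCDH10 (-0.76) and PCDH18 (-0.69). Among all genes tested, 36.1% were higher with PABPN and 33.4% higher with PABPC, so a difference as such is common in these tables. Groups of 3 libraries were too small to look for outlying libraries.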

How the results depend on the processing

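With PABPN, 2 depleted members became 1 at a log2 limit of 1 or when centred on protein coding genes, and 0 by a Wald test against 0.5, and 0 enriched became 1 (PCDHB15) with no baseMean filter. With PABPC, 2 enriched members became 0 at a limit of 1, 3 at an adjusted p of 0.05, and 1 by the Wald test against 0.5 or when centred on all or on protein coding genes. Leaving out each library in turn gave 1 to 2, and PCDH20 lost its call without input library 1 or PABPC RIP library 3. The 3 depleted with PABPC stayed at 3 in every alternative run. For the difference, the count higher with PABPC fell from 4 to 2 at a limit of 1, rose to 5 with the variance of the shared input taken out or at an adjusted p of 0.05, and stayed at 4 otherwise; the 3 higher with PABPN stayed at 3 throughout. Values that changed sign were near 0: PCDH17 with PABPN at 0.01 when centred on protein coding genes, PCDH18 with PABPC at -0.01 and -0.12 when centred on all and on protein coding genes, and the PCDH17 difference at -0.06 when centred on all genes. Leaving out libraries was chosen after seeing the data, and PCDH7 kept its deposited value there. Those runs kept the dispersion and size factors of the full comparison and a fixed p threshold. The variance was thus not estimated anew, and the runs may look more stable than a full refit. No paired analysis was possible because the tables carry no replicate numbers. Reads limit what can be said of PCDHA and PCDHB genes, and the cause of each change was not tested.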
